A study of Homo sapiens with 16 samples.

Results

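The interaction between 5-aza-dC and TSA was examined in HCT116, an established human colon cancer cell line, on 8 Affymetrix Human Genome U133 Plus 2.0 arrays of the 16 in the series. The arrays were chosen by their labels. The effect of 5-aza-dC in TSA-treated cells was taken from the arrays of 5-aza-dC/TSA and of all 3 drugs (PJ-34/5-aza-dC/TSA), set against TSA and PJ-34/TSA. The effect without TSA was taken from 5-aza-dC and PJ-34/5-aza-dC, set against the control and PJ-34. The quantity studied was the first effect minus the second on the log2 scale, and it equals the TSA effect in 5-aza-dC-treated cells minus that in cells without 5-aza-dC. By the methods of the study, treatment lasted 3 days, alone or in combination, at concentrations of 150 nM for TSA, 0.5 µM for 5-aza-dC and 3 µM for PJ-34, and the control received none of these drugs. The other 8 arrays hold the same drug combinations in RKO, also a human colon cancer line. For RKO the methods and the results of the study state different PJ-34 concentrations. Each condition had 1 array, and nothing in the labels tells of separate cultures, so the spread used by the tests is that among these 8 arrays, with any interaction of PJ-34 in it.

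The 3 drugs block different enzymes. 5-aza-dC (decitabine) is a cytidine analog that is built into DNA and traps DNA methyltransferases, so that methylation is lost as cells divide. TSA (trichostatin A) inhibits histone deacetylases and raises histone acetylation, and PJ-34 inhibits poly(ADP-ribose) polymerases. Many germline genes are held silent in somatic cells by methylated promoters, and combining both kinds of inhibitor is a well-known way of reactivating silenced genes in cancer cells. On the log2 scale a difference of 0 means that 5-aza-dC multiplied a signal by the same factor with and without TSA.

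The deposited values are linear signal intensities of 54675 probe sets (groups of short oligonucleotides that read 1 transcript), which the authors had scaled array by array to the same target. The median signal was 160 to 210 over the 8 arrays, and 21.9% to 26.5% of signals lay under 50. Values below 50 were raised to 50 (the floor) ahead of the log2 transform. Tests covered the 26816 probe sets that reached 250 on at least 2 of the 8 arrays, or 12040 genes when each gene is given by 1 probe set. Of 24 colon epithelium markers on the array 12 were tested, against 14 of 30 for fibroblasts and mesenchyme, 5 of 17 for the blood lineage and 1 of 5 for endothelium. Over the defining markers alone, the summed signal was 220512 to 259092 on the 4 arrays with TSA and 170388 to 258539 on the 4 without it for 13 colon markers, 4086 to 4696 and 3601 to 6573 for 10 fibroblast markers, and 732 to 1466 and 1263 to 1361 for 9 blood markers. Their part in the results was not tested. The arrays read RNA of whole cultures, where fewer cells of a kind and less RNA per cell cannot be told apart.

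Promoter windows of the genes that carry the patterns below are shown first, from RefSeq (GRCh38.p14), each running from 250 bases before to 50 bases after an annotated start. For TKTL1 and DHRS2 the window of lowest coordinate is given where there are several. TKTL1, a transketolase-like protein, had the largest average response to 5-aza-dC. DHRS2, a short-chain dehydrogenase/reductase known to be induced by histone deacetylase inhibitors, was brightest when both drugs were present. CG dinucleotides, the sites of DNA methylation, are in capitals. The TKTL1 window (chrX:154295545-154295844, plus strand) holds 18 of them and the DHRS2 window (chr14:23629865-23630164, plus strand) holds 0.
TKTL1: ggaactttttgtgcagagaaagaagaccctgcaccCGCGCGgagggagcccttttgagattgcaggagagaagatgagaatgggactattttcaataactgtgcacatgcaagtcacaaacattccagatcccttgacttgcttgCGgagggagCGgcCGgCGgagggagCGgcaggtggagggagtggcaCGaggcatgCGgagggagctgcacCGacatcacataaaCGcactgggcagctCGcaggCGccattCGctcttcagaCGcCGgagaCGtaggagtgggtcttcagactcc
DHRS2: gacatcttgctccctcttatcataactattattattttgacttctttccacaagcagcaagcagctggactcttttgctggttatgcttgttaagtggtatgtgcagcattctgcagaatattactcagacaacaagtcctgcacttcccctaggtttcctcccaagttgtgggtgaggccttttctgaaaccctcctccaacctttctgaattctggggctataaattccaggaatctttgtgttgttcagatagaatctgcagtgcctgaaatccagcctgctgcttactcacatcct
Over all 35116 windows of the reference the median was 14 CG, and it was 25 over the 14300 windows of tested genes. The 131 of 177 genes raised by 5-aza-dC on average that have a window had a median of 15 CG over 195 windows. CG content was 10 or fewer in 35.4% of those windows, against 19% of the windows of tested genes and 45.3% of all windows. DNA methylation was not measured on these arrays.

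The next 3 windows belong to genes of the integrated stress response, which ran the opposite way. This program is switched on when translation is slowed by amino acid shortage or other stress, and its transcription factor ATF4 binds C/EBP-ATF response elements, searched here as TGATGNAA on both strands. The motif lay in 11 of 46 windows of the 34 stress response genes tested (23.9%, 29 genes matched), against 3.62% of all windows and 2.05% of the windows of tested genes. The list was made of genes known for this program, so the excess describes the list and is no result of these arrays. Of these 11 genes, those with the smallest p for the difference are shown with the match in capitals. ASNS makes asparagine (chr7:97872359-97872658, minus strand, match starting at base -68 from the start site), SLC3A2 is the heavy chain of amino acid transporters (chr11:62881449-62881748, plus strand, at 37) and GARS1 charges glycine tRNA (chr7:30594628-30594927, plus strand, at -33). The matches of SLC3A2 and GARS1 are on the opposite strand and so read as the reverse complement.
ASNS: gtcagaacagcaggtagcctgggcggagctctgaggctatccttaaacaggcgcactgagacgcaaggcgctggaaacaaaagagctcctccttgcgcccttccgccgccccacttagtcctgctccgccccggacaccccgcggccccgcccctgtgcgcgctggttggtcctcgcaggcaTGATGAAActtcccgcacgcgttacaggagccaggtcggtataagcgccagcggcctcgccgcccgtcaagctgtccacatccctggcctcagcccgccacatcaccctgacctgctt
SLC3A2: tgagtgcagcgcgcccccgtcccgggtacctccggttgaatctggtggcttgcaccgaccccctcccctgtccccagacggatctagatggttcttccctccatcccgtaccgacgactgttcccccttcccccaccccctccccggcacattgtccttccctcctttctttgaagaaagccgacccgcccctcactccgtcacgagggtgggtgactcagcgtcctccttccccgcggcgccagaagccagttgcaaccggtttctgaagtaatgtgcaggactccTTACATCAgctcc
GARS1: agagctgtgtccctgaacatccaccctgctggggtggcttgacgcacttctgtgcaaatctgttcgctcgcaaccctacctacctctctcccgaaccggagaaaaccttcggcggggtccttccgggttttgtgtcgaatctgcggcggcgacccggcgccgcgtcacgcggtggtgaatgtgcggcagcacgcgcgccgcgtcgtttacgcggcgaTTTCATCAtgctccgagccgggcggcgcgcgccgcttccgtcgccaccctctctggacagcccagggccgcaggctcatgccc
A match is a string of letters and no evidence of binding.

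No probe set passed the test of the difference itself. Of 26816 probe sets, 0 had an adjusted p under 0.05 (limma, Benjamini-Hochberg, 0% in each direction), and the smallest adjusted p was 0.603. Unadjusted, 1452 (5.41%) were under 0.05, of which 767 lay above 0 and 685 below. The median standard error of a difference was 0.388 log2 units, so a typical 95% interval reached 0.85 on either side. The 5-aza-dC effects with and without TSA had a median standard error of 0.274 each. With TSA, 5-aza-dC raised 50 probe sets (0.186%) and lowered 0, with 395 lower at an unadjusted p under 0.05. Without TSA it raised 247 (0.921%) and lowered 81 (0.302%). In genes, these were 27 raised with TSA and 157 raised and 46 lowered without it. Of the raised genes 26 were raised both with and without TSA, which is 96.3% of the 27 and 16.6% of the 157, and the remaining 1 was IFITM1, a membrane protein that restricts viruses (named after its values were seen). A gene called in 1 setting and not in the other is not shown to differ between them, since no difference passed. The count of calls without TSA, 328 in all, depended on single arrays. It was 53 without the PJ-34/5-aza-dC array, 90 without the control, 92 without PJ-34, 483 without 5-aza-dC, 796 without PJ-34/TSA and 803 without TSA. The count with TSA was 14 without the 5-aza-dC/TSA array and 37 to 49 without any other array.

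Probe sets that 5-aza-dC raised on average, whether near the floor or bright without it, mostly had a smaller effect when TSA was present. The 5-aza-dC effect averaged over TSA (4 arrays against 4) does not use the difference in this balanced design. Its calls are thus not made on the difference, but the filter on signal is not free of it. MAEL, SYCP3, MAGEA8, AK5 and PRSS21 reached 250 only on the 2 5-aza-dC arrays without TSA, which fixed the sign of their difference. They are among the raised genes below (named after their values were seen), and all members of this kind were not counted. The average effect called 284 raised probe sets (1.06%) and 55 lowered ones (0.205%). Both numbers depended on the fit. With no variance trend they were 121 and 6, with no filter on signal 0 and 0 (limma, 5200 at an unadjusted p under 0.05), and with each array left out in turn 117 to 450 raised and 3 to 364 lowered. The lowered side was 3 without the control, 4 without PJ-34 and 5 without PJ-34/5-aza-dC. Among the raised probe sets the difference was below 0 in 244 of 284 (85.9%, against 47.7% of all probe sets tested), and its median was -0.70 with quartiles of -1.28 and -0.21, against 0.026 over all. Their median effect was 1.03 with TSA and 1.68 without. Of these, 123 had an unadjusted p under 0.05 below 0 and 6 above 0, where 2.55% and 2.86% of all probe sets did. Both 5-aza-dC arrays with TSA lay below both 5-aza-dC arrays without it in 190 of 284 (66.9%, against 22.6% of all) and above both in 31 (10.9%, against 19.3%). Among the 215 raised probe sets with no array under the floor, the difference was below 0 in 184 with a median of -0.55. These 215 still hold SYCP3 and AK5. In genes, 149 of 177 were below 0, against 53.4% of all genes.

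The lowered side mirrored this. Of the 55 lowered probe sets 54 had a difference above 0 (98.2%, against 52.3% of all), with a median of 0.52, and their median effect was -0.42 with TSA and -1.05 without it. In both directions the median response was thus smaller in TSA-treated cells, while no single difference passed the test. With each array left out in turn, 223 to 250 of these raised probe sets were below 0, of 275 or 284 tested, and 47 to 55 of the 55 lowered ones were above 0. The sets called anew in each such fit are not free of the difference, as the design is then unbalanced. Of their raised members between 208 of 275 (without PJ-34/TSA) and 218 of 238 (without 5-aza-dC) were below 0. Of the lowered ones 221 of 364 were above 0 without TSA, 8 of 17 without 5-aza-dC/TSA and 7 of 11 without the triple array, smaller shares than 54 of 55.

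**Figure D1:**
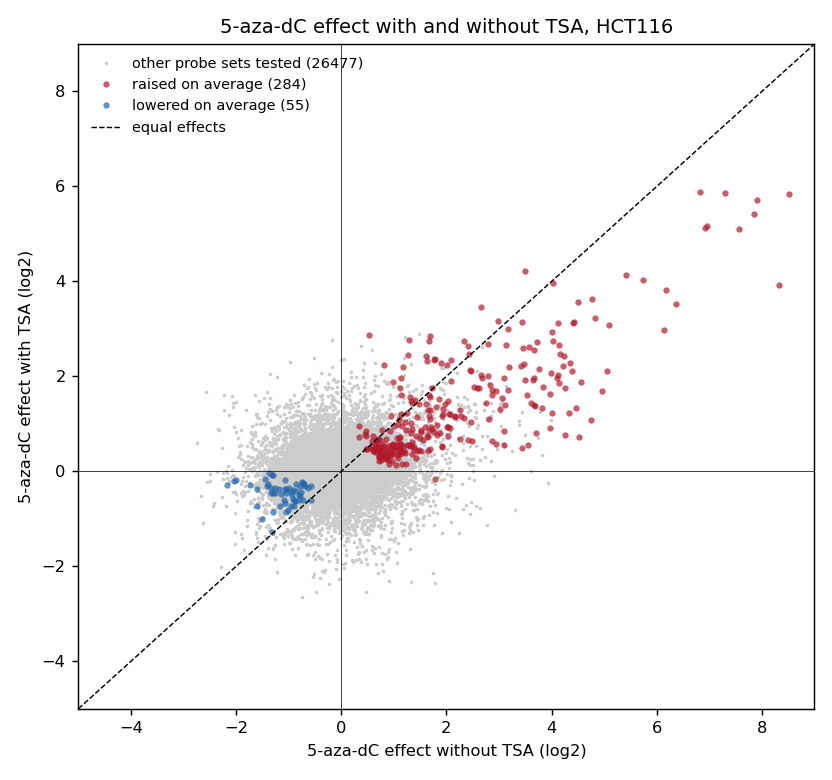
5-aza-dC effect with TSA (vertical axis, log2) against the effect without TSA (horizontal axis, log2) for 26816 probe sets, with the 284 raised and 55 lowered on average in colour and equal effects as a dashed line. Raised probe sets lie mostly under the line (244 of 284) and lowered ones mostly above it (54 of 55).

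Cancer-testis antigens, proteins normally confined to the germline, had the lowest median difference of the lists with 10 or more tested genes. Of 55 listed genes 30 are named on the array and 17 passed the filter on signal. Without TSA 12 of 17 rose past the test (157 of 12040 genes, 1.3%, did) and with TSA 2 did, MAGEA4 and SSX1 (0.224% of genes). The median effect was 1.08 with TSA and 2.47 without, and the median difference was -1.43, against -0.03 over all genes. The difference was below 0 in 14 of 17, with an unadjusted p under 0.05 in 10 (3.16% of all genes), and 0 of 17 passed after adjustment. The exceptions above 0 were PAGE1, PAGE4 and XAGE2. A gene that is dim on all other arrays enters the test only through its 5-aza-dC arrays. These counts thus describe the genes tested and not the family. Entry only through the 5-aza-dC arrays without TSA, as for MAGEA8 above, fixes the sign of the difference. Genes of this kind were neither counted nor left out here, so the shares of all genes are no test of the list. Probe sets of this family, many marked as cross-hybridizing by the array's design, can read more than 1 member.

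MAGEA4, a melanoma antigen, had signals of 1680 with 5-aza-dC/TSA and 973 with all 3 drugs, against 61.8 with TSA and 99.9 with PJ-34/TSA. Without TSA it had 3321 with 5-aza-dC and 4147 with PJ-34/5-aza-dC, against 96.7 in the control and 20.5 with PJ-34. All 4 arrays with 5-aza-dC were bright and the other 4 near the floor, and both 5-aza-dC arrays with TSA were dimmer than both without it. Its effect was 4.02 with TSA (adjusted p = 0.00206) and 5.74 without (adjusted p = 5.69e-05), and the difference of -1.71 (SE 0.62) had an adjusted p of 0.861. MAGEA12 had 4076 and 2676 on the 5-aza-dC/TSA and triple arrays, against 1529 and 1676 with TSA and PJ-34/TSA, and 6764 and 8102 with 5-aza-dC and PJ-34/5-aza-dC, against 1225 and 1449 in the control and PJ-34. Its background was well above the floor on every array, and the 5-aza-dC arrays again did not overlap (difference -1.43, SE 0.32, adjusted p = 0.814). SSX1, an antigen that is also a fusion partner in synovial sarcoma, had an effect of 2.48 with TSA and 4.16 without it.

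Of 14 germline genes tested outside the antigen families, 0 rose past the test with TSA (limma, against 0.224% of all genes) and 4 without (against 1.3%), and the median effect was 0.61 with TSA and 1.33 without. DAZL, MAEL and SYCP3 reached 250 only on the 2 5-aza-dC arrays without TSA. They entered the test through those arrays, which fixed the sign of their difference, and their values are a description. The counts and medians above include them, and MAEL and SYCP3 are among the 4 raised without TSA. Those counts are thus no test of the list. DAZL, an RNA-binding protein of germ cells, had 17.6 and 44.7 with 5-aza-dC/TSA and all 3 drugs, against 155 and 35.5 with TSA and PJ-34/TSA. Without TSA it had 1179 and 702.5 with 5-aza-dC and PJ-34/5-aza-dC, against 73.5 and 114 in the control and PJ-34. DAZL was thus bright on the 5-aza-dC arrays without TSA and dim on the other 6, 3 of them under the floor, and its difference was -4.13. MAEL, a factor of the piRNA pathway that silences transposons, had 228.5 and 60.7 with 5-aza-dC/TSA and all 3 drugs, 13.2 and 23.4 with TSA and PJ-34/TSA, 1465 and 1232 with 5-aza-dC and PJ-34/5-aza-dC, and 90.2 and 18.6 in the control and PJ-34. SYCP3, a part of the synaptonemal complex of meiosis, gave 211 and 243.5 on the 5-aza-dC/TSA and triple arrays and 989.5 and 742 on the 5-aza-dC and PJ-34/5-aza-dC arrays, while the 4 others lay between 90.8 and 215. For MAEL and SYCP3 too, both 5-aza-dC arrays without TSA stood above the other 6 arrays. Their effects without TSA were 4.32 and 2.95.

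TKTL1, with the largest average response, had 5595 with 5-aza-dC/TSA and 1479 with all 3 drugs, against 46.6 with TSA and 37.1 with PJ-34/TSA. Without TSA it had 28200 with 5-aza-dC and 27680 with PJ-34/5-aza-dC, against 41.3 in the control and 115.5 with PJ-34. The signal was high only on the 4 arrays with 5-aza-dC, and the arrays with TSA among them were dimmer by a wide margin. The effect was 5.85 with TSA and 8.52 without, with 3 arrays under the floor, and the difference was -2.68 (SE 0.75, adjusted p = 0.861). Adding TSA to 5-aza-dC lowered TKTL1 by itself past the test (-3.28, adjusted p = 0.037). Only 1 of 2 TKTL1 probe sets is described, and both were below 0.

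The 10 genes with the largest average effect past its test were TKTL1, MAGEA4, IFI27, UCHL1, KRT12, SPARC, GJA1, GCNA, DKK4 and PRF1, and 9 of them had a difference below 0. UCHL1, a neuronal ubiquitin hydrolase whose promoter is often methylated in colon cancer, had 1056 and 456 with 5-aza-dC/TSA and all 3 drugs, against 134 and 13.3 with TSA and PJ-34/TSA, and 2239 and 2442 with 5-aza-dC and PJ-34/5-aza-dC, against 94.6 and 39.7 in the control and PJ-34. PRF1, the pore-forming perforin of cytotoxic lymphocytes, had 14380 and 11210, against 1793 and 1530, with TSA, and 22300 and 27260, against 1516 and 1559, without it. On both genes the 5-aza-dC arrays with TSA lay below those without. The difference of PRF1 was -1.07 (SE 0.25, adjusted p = 0.814), and its effect passed the test both with TSA (2.94, adjusted p = 3.72e-05) and without (4.0, adjusted p = 8.09e-07). Other blood-lineage genes with an effect past the test without TSA were SRGN (serglycin, the proteoglycan of secretory granules, 2.67 with TSA and 4.14 without) and LAPTM5 (a lysosomal membrane protein of blood cells, 1.44 and 2.76). Of 17 blood-lineage genes on the array 5 were tested.

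Not every activated gene followed this order. SPARC, a secreted glycoprotein of the matrix, had 1909 and 2043 with 5-aza-dC/TSA and all 3 drugs, against 121 and 131 with TSA and PJ-34/TSA, and 3145 and 5035 with 5-aza-dC and PJ-34/5-aza-dC, against 231 and 257 in the control and PJ-34. TSA arrays were dimmer than their counterparts with and without 5-aza-dC alike, and the 5-aza-dC effect was 3.97 with TSA and 4.03 without, a difference of -0.06 (95% interval -0.88 to 0.77) that took either sign when single arrays were left out (-0.34 to 0.22). GJA1 (a connexin of gap junctions) had 3839 and 1957, against 123 and 177, with TSA, and 2155 and 2273, against 134 and 289, without it. Its difference was 0.72 (95% interval -0.54 to 1.99), and it was -0.05 to 1.49 with 1 array left out. COL6A3, a chain of collagen VI, had effects of 3.16 with TSA and 2.98 without, and KRT20, a keratin of differentiated intestinal cells, 3.01 and 3.18 (both named after their values were seen). Intervals this wide do not show equal effects.

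**Figure D2:**
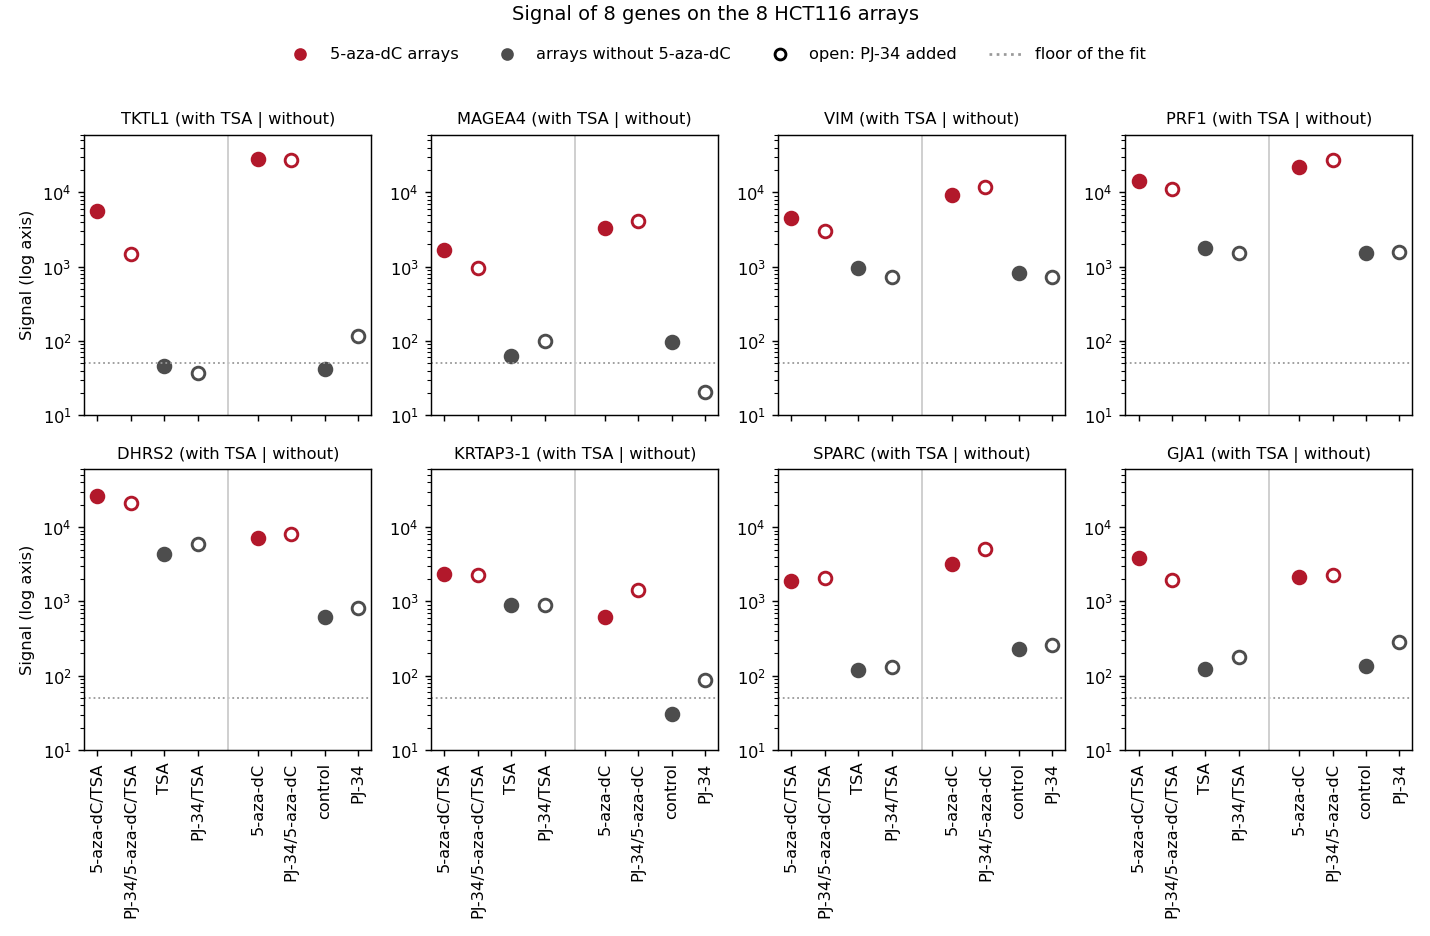
Signal (log axis) of 8 genes on each of the 8 HCT116 arrays, with TSA left of the line and without it on the right. Red points are arrays with 5-aza-dC and grey ones arrays without it, open points had PJ-34 added, the dotted line is the floor of 50, and there is 1 array per point and so no error bar. For TKTL1, MAGEA4, VIM and PRF1 the 5-aza-dC arrays with TSA lie below those without it, for DHRS2 and KRTAP3-1 above, and for SPARC and GJA1 the 5-aza-dC effects were 3.97 and 4.22 with TSA and 4.03 and 3.49 without.

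Differences below 0 went with more than 1 order of the arrays. The orders below are descriptions, as no difference passed the test. In VIM, the intermediate filament of mesenchymal cells, TSA alone left the signal near the control and lowered it when added to 5-aza-dC. VIM had 4591 and 3010 with 5-aza-dC/TSA and all 3 drugs, against 959 and 722 with TSA and PJ-34/TSA, and 9208 and 11930 with 5-aza-dC and PJ-34/5-aza-dC, against 826 and 725 in the control and PJ-34 (difference -1.60, SE 0.33, adjusted p = 0.781). The TSA effect on VIM was -1.50 with 5-aza-dC (adjusted p = 0.0322) and 0.10 without it (adjusted p = 0.817). DHRSX, an enzyme related to DHRS2, had 3625 and 2463 with 5-aza-dC/TSA and all 3 drugs, against 760.5 and 1026 with TSA and PJ-34/TSA, and 8145 and 13640 with 5-aza-dC and PJ-34/5-aza-dC, against 382 and 795 in the control and PJ-34 (difference -2.50, SE 0.44, adjusted p = 0.603). FAM50B, an imprinted gene, had 346 and 389, against 198 and 192, with TSA, and 973 and 1234, against 60.0 and 82.2, without it, so that arrays with both drugs lay between those with 1 of them (difference -3.05, SE 0.61, adjusted p = 0.781).

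In DHRS2 each drug raised the signal and the pair was brightest, yet less bright than the product of the 2 effects. DHRS2 had 26050 with 5-aza-dC/TSA and 21420 with all 3 drugs, against 4347 with TSA and 5871 with PJ-34/TSA, and 7126 with 5-aza-dC and 8149 with PJ-34/5-aza-dC, against 626 in the control and 806 with PJ-34. The 5-aza-dC effect was 2.23 with TSA and 3.42 without, both past the test, and the TSA effect was 1.63 with 5-aza-dC (adjusted p = 0.00865) and 2.83 without (adjusted p = 0.000186). The difference was -1.20 (SE 0.26, adjusted p = 0.814), but the second DHRS2 probe set gave 0.24 (SE 0.25), so the gene's probe sets disagree. KRTAP3-1, a hair keratin-associated protein, had 2337 and 2250 with 5-aza-dC/TSA and all 3 drugs, against 900.5 and 907 with TSA and PJ-34/TSA, and 614 and 1424 with 5-aza-dC and PJ-34/5-aza-dC, against 30.6 and 86.8 in the control and PJ-34. It too was brightest with both drugs, and its difference was -2.48 (SE 0.49, adjusted p = 0.781).

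In a further group TSA alone brought the signal near that of the pair. TIGAR, a p53-induced fructose bisphosphatase, had 9997 and 9941 with 5-aza-dC/TSA and all 3 drugs, against 8808 and 9409 with TSA and PJ-34/TSA, and 5649 and 6379 with 5-aza-dC and PJ-34/5-aza-dC, against 2762 and 3046 in the control and PJ-34. The 5-aza-dC effect was 0.13 with TSA and 1.05 without (adjusted p = 0.00391), and the difference was -0.92 (SE 0.20, adjusted p = 0.814). TUBA1A, an alpha-tubulin, had effects of 0.42 with TSA and 1.66 without (adjusted p = 0.00114) and a difference of -1.24 (SE 0.27, adjusted p = 0.814). SPC24, a subunit of the NDC80 complex at the kinetochore, had -0.38 and 1.47 (difference -1.84, SE 0.35, adjusted p = 0.727). Among all 10 named genes with the smallest p below 0, which also include LOC100289333, adjusted p values ran from 0.603 to 0.814.

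The TSA effect within 5-aza-dC-treated cells could be tested by itself. TSA raised 33 probe sets (0.123%) and lowered 50 (0.186%) there, against 961 raised (3.58%) and 1003 lowered (3.74%) in cells without 5-aza-dC. At an unadjusted p under 0.05 (limma), 3890 (14.5%) changed with 5-aza-dC and 6782 (25.3%) without it. A probe set called in 1 setting only is not shown to differ between them. How far these counts depend on single arrays was not examined. In genes these were 0.158% and 0.233% with 5-aza-dC, against 4.86% and 4.23% without it. Of the 284 probe sets raised by 5-aza-dC on average, 223 had a TSA effect below 0 in 5-aza-dC-treated cells (53.3% of all probe sets did), and 17 were lowered and 4 raised past the test. In genes, 8 were lowered (IFITM1, TKTL1, CLIC3, DHRSX, VIM, FGFR3, COL6A1 and EPPK1) and 2 raised (DHRS2 and PLK2), a list given in full and so not by the rule for names. IFITM1 had 1416 and 1058 with 5-aza-dC/TSA and all 3 drugs, against 521 and 306 with TSA and PJ-34/TSA, and 5658 and 6600 with 5-aza-dC and PJ-34/5-aza-dC, against 2537 and 3060 in the control and PJ-34. TSA arrays were dimmer in either case, so that the difference of IFITM1 was 0.48 although its TSA effect with 5-aza-dC was -2.32 (adjusted p = 0.00805). FGFR3, a fibroblast growth factor receptor, had 3195 and 2314, against 2046 and 2020, with TSA, and 6581 and 5972, against 2218 and 2387, without it, and the 5-aza-dC arrays without TSA were brightest (difference -1.03).

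Integrated stress response genes had differences above 0. Of 38 listed genes 34 were tested. In 31 the difference was above 0 (46.6% of all genes), in 21 with an unadjusted p under 0.05 (2.35% of all genes), and none of the 34 passed after adjustment (limma). The median difference was 0.62, and it was 0.57 to 0.74 in 18 alternatives. The median 5-aza-dC effect was -0.04 with TSA and -0.70 without, where 11 of 34 fell past the test and 1, CTH, rose (0.382% and 1.3% of all genes). With TSA 0 changed past the test.

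The signals of the 3 genes given here lay at 3 levels. ASNS had 10300 and 11530 with 5-aza-dC/TSA and all 3 drugs, against 12490 and 10530 with TSA and PJ-34/TSA, and 27030 and 17830 with 5-aza-dC and PJ-34/5-aza-dC, against 52340 and 57370 in the control and PJ-34. DDIT3 (CHOP), a transcription factor of prolonged stress, had 1275 and 906 with 5-aza-dC/TSA and all 3 drugs, against 1381 and 1035 with TSA and PJ-34/TSA, and 2813 and 1667 with 5-aza-dC and PJ-34/5-aza-dC, against 6757 and 5149 in the control and PJ-34. TRIB3, a pseudokinase that ATF4 induces, had 2717 and 3283, against 3708 and 2675, with TSA, and 8173 and 6222, against 18420 and 16690, without it. In each of the 3 genes the control and PJ-34 arrays were highest, the 5-aza-dC arrays without TSA came next, and the 4 TSA arrays were lowest whether or not 5-aza-dC was present.

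For ASNS the 5-aza-dC effect was -0.07 with TSA and -1.32 without (adjusted p = 0.00373), and the difference was 1.25 (SE 0.25, adjusted p = 0.781). Those of DDIT3, TRIB3 and DDIT4, an inhibitor of mTORC1 signalling, were 1.29, 1.22 and 1.34 with adjusted p of 0.781, 0.814 and 0.603. ATF4 itself had 30590 and 29740 with 5-aza-dC/TSA and all 3 drugs, 29600 and 29450 with TSA and PJ-34/TSA, 35450 and 37490 with 5-aza-dC and PJ-34/5-aza-dC, and 52630 and 53260 in the control and PJ-34. SLC7A11, the cystine transporter, had the largest difference of the list, 1.88 (SE 0.49, adjusted p = 0.861), with 2044 and 1508 on the 5-aza-dC/TSA and triple arrays and 13520 and 13450 in the control and PJ-34 (ATF4 and SLC7A11 were named after their values were seen). The genes with a difference below 0 were CTH, a cysteine synthesis enzyme (-0.56), the factor ATF5 (-0.32) and the serine synthesis enzyme PSPH (-0.19). ATF3, an early stress factor, differed by 0.27 and HERPUD1, a protein of endoplasmic reticulum quality control, by 0.01.

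**Figure D3:**
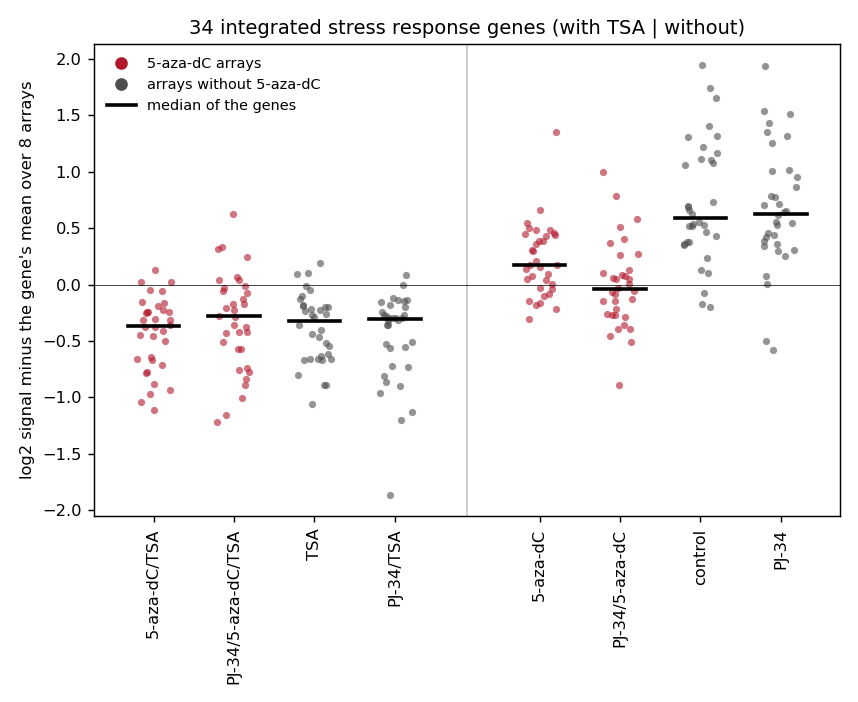
Log2 signal of 34 integrated stress response genes on each HCT116 array, minus each gene's own mean over the 8 arrays, with TSA left of the line and without it on the right. Points are genes and bars their medians, which were -0.37 to -0.28 on the 4 arrays with TSA, 0.17 with 5-aza-dC and -0.04 with PJ-34/5-aza-dC, and 0.59 in the control and 0.63 with PJ-34.

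RBCK1 and CSTA, also among the 10 with the smallest p above 0, shared this order of arrays. RBCK1, a subunit of the linear ubiquitin ligase, had 5696 and 5547 with 5-aza-dC/TSA and all 3 drugs, against 5565 and 4451 with TSA and PJ-34/TSA, and 7557 and 7363 with 5-aza-dC and PJ-34/5-aza-dC, against 16120 and 15630 in the control and PJ-34 (difference 1.26, SE 0.21, adjusted p = 0.603). CSTA (cystatin A, a cysteine protease inhibitor) had 2584 and 1831, against 2013 and 1900, with TSA, and 3428 and 2678, against 7259 and 7564, without it (difference 1.44, SE 0.26, adjusted p = 0.603). TFPI, the tissue factor pathway inhibitor of coagulation, differed by 1.33, KCNG1, a potassium channel subunit, by 1.77 and NIBAN1, a stress-induced regulator of translation, by 1.99, with adjusted p of 0.814, 0.727 and 0.814. KCNG1 had an effect of 0.72 with TSA and -1.04 without, neither past the test.

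Metallothioneins are small proteins that bind zinc and copper. Of 10 genes of the list tested, which includes the zinc exporter SLC30A1 and the regulator MTF1, 8 had a difference above 0 (46.6% of all genes did), 4 with an unadjusted p under 0.05 (2.35% of all genes), and the median was 0.33. MT1G had 10340 and 15220 with 5-aza-dC/TSA and all 3 drugs, against 8600 and 13080 with TSA and PJ-34/TSA, and 6209 and 8459 with 5-aza-dC and PJ-34/5-aza-dC, against 11780 and 13010 in the control and PJ-34. Here the 5-aza-dC arrays without TSA were the lowest pair, and the arrays with PJ-34 were the brighter ones of each pair. The effect of 5-aza-dC on MT1G was 0.24 with TSA and -0.77 without (adjusted p = 0.0318), and the difference was 1.01 (SE 0.21, adjusted p = 0.814). The members are near-identical in sequence and their probe sets may share signal.

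Replication-dependent histone genes have messages that normally lack a poly(A) tail. Of 12 tested 3 rose past the test with TSA (0.224% of all genes did) and 7 without (1.3%), with median effects of 1.01 and 1.46. The median difference was -0.67, and it was below 0 in 11 of 12, against 53.4% of all genes. H1-2, a linker histone, had 4394 and 3389 with 5-aza-dC/TSA and all 3 drugs, against 1114 and 1144 with TSA and PJ-34/TSA, and 6831 and 8503 with 5-aza-dC and PJ-34/5-aza-dC, against 1215 and 1434 in the control and PJ-34. H2BC12, a core histone, had 25690 and 19730, against 9831 and 9612, with TSA, and 23260 and 31480, against 6861 and 7284, without it. The 5-aza-dC arrays of H1-2 did not overlap between the settings and those of H2BC12 did, and the differences were -0.76 and -0.72 (SE 0.28 and 0.25, both adjusted p = 0.861). H2AC6 showed effects of 1.22 with TSA and 1.25 without.

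Among known targets of histone deacetylase inhibitors 34 were tested. The difference was below 0 in 21 of 34, near the 53.4% of all genes, with a median of -0.15. At an unadjusted p under 0.05 (limma) 9 lay below 0 and 2 above, against 3.16% and 2.35% of all genes. None of the differences passed after adjustment. Past the test 5-aza-dC raised 9 without TSA and 4 with it, against 1.3% and 0.224% of all genes. TXNIP, an inhibitor of thioredoxin, had 494.5 and 348 with 5-aza-dC/TSA and all 3 drugs, against 143.5 and 175 with TSA and PJ-34/TSA, and 1641 and 861 with 5-aza-dC and PJ-34/5-aza-dC, against 77.9 and 114 in the control and PJ-34 (difference -2.27, SE 0.67, adjusted p = 0.861). CDKN1A (p21), the cell cycle inhibitor, had 19910 and 22880, against 19190 and 22140, with TSA, and 11770 and 14500, against 8224 and 9239, without it, and its difference was -0.53 (SE 0.18, adjusted p = 0.861). TXNIP was brightest with 5-aza-dC in the absence of TSA, while CDKN1A was brightest on all 4 TSA arrays.

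Targets of the Wnt pathway had a difference below 0 in 15 of 16, against 53.4% of all genes (median -0.34). Of these 0 were raised past the test with TSA (limma, 0.224% of all genes) and 3 without it (1.3%). EPHB3, an ephrin receptor of intestinal crypts, had 388 and 568 with 5-aza-dC/TSA and all 3 drugs, against 470 and 461 with TSA and PJ-34/TSA, and 741 and 849 with 5-aza-dC and PJ-34/5-aza-dC, against 292 and 225 in the control and PJ-34. Its effect was 0.01 with TSA and 1.63 without (adjusted p = 0.0408), and the difference was -1.62 (SE 0.47, adjusted p = 0.861). NF-kB targets and chemokines were below 0 in 12 of 16 with a median of -0.58, against the same 53.4%, and 0 changed past the test in either setting. The adhesion molecule ICAM1 had 325 and 92.1 with 5-aza-dC/TSA and all 3 drugs and 883.5 and 703.5 with 5-aza-dC and PJ-34/5-aza-dC, the other 4 arrays lying between 218 and 296.

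Several gene groups of interest for these drugs had a median difference near 0. It was -0.11 over 32 interferon-stimulated genes, 0.08 over 21 antigen presentation genes and -0.01 over 18 genes of the DNA methylation machinery. The median was -0.04 over 30 histone deacetylases and corepressors and -0.06 over 29 ribosomal protein genes. Over 44 mitosis genes it was 0.05 and over 50 DNA replication genes -0.16. Below 0 were 25 of the 29 ribosomal protein genes and 34 of the 50 DNA replication genes, against 53.4% of all genes. A large share below 0 can thus go with a small median shift. In the interferon list 18 of 32 were below 0, near the 53.4% of all genes. At an unadjusted p under 0.05 (limma) 5 lay below 0 and 1 above, against 3.16% and 2.35% of all genes. Past the test 5-aza-dC raised 5 without TSA and 2 with it, against 1.3% and 0.224% of all genes. A gene of each direction follows. ISG15, a ubiquitin-like modifier, had effects of 0.15 with TSA and 1.16 without (difference -1.0, SE 0.24), and IFIT2, an inhibitor of translation, 0.89 with TSA and -1.26 without (difference 2.15, SE 0.66), with adjusted p of 0.814 and 0.861. DNMT1, the maintenance methyltransferase that 5-aza-dC traps, had 9157 and 10430, against 10120 and 9879, with TSA, and 8800 and 10570, against 9306 and 9838, without it. The message of DNMT1 differed by -0.04 (95% interval -0.48 to 0.39), that of HDAC1 by -0.33 (-0.79 to 0.12) and that of PARP1 by -0.23 (-0.82 to 0.35). Of the genes that the study names 5 were tested. Beside UCHL1 they were CDH1 (-0.14), CDKN2A (-0.17), RANBP9 (0.17) and SOCS3 (0.50), none past the test. Another probe set gave 0.14 for CDH1, 0.15 for CDKN2A and -0.10 for SOCS3. The others of RANBP9 gave -0.09 and -0.55, so the probe sets of each of these genes disagree in sign.

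**Figure D4:**
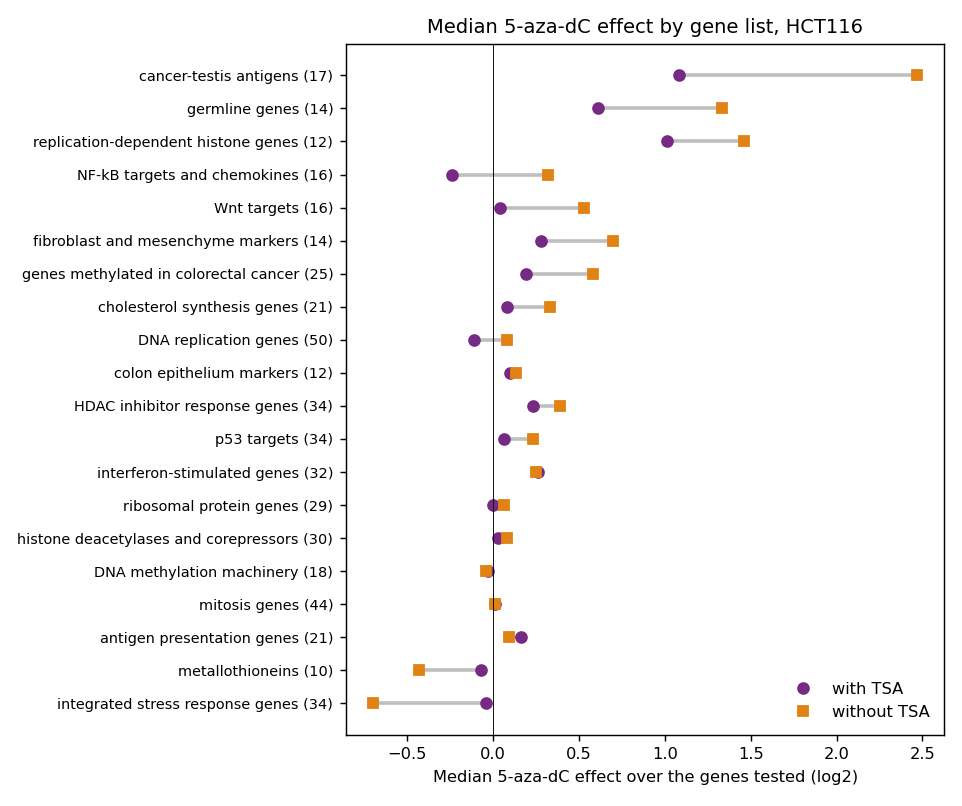
Median 5-aza-dC effect (log2) over the tested genes of each list with 10 or more of them, with TSA (circles) and without TSA (squares), ordered by the median difference and with the number of genes in brackets. Cancer-testis antigens had medians of 1.08 and 2.47 and integrated stress response genes of -0.04 and -0.70.

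The 4 arrays with PJ-34 and the 4 without it each give 1 value of the difference and share no array. Over 26816 probe sets, which are not independent, these values correlated weakly (Pearson r = 0.111). The effect of 5-aza-dC with TSA correlated at 0.003 between these strata and the effect without TSA at 0.374. Differences above 1 were seen in 2841 probe sets with PJ-34 and 2177 without it and in 527 of them both times, which is 18.5% and 24.2% of each list. Of all probe sets 10.6% lay above 1 with PJ-34 and 8.12% without it. Differences below -1 were seen in 1565 with PJ-34 and 2116 without and in 395 both times (25.2% and 18.7%), while 5.84% of all probe sets lay below -1 with PJ-34 and 7.89% without. Both overlaps were thus larger shares of each list than of all probe sets. Among the 284 raised probe sets 206 were below 0 in both strata (26.8% of all probe sets were), with medians of -0.82 with PJ-34 and -0.51 without it, and 52 of the 55 lowered ones were above 0 in both (29.9% of all). Individual genes varied more. MAGEA4 had -3.09 with PJ-34 and -0.34 without, and IFI27, an interferon-inducible gene, had -0.28 with PJ-34 and -2.32 without, while RBCK1 had 1.40 and 1.13. The integrated stress response list had medians of 0.81 with PJ-34 and 0.51 without.

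**Figure D5:**
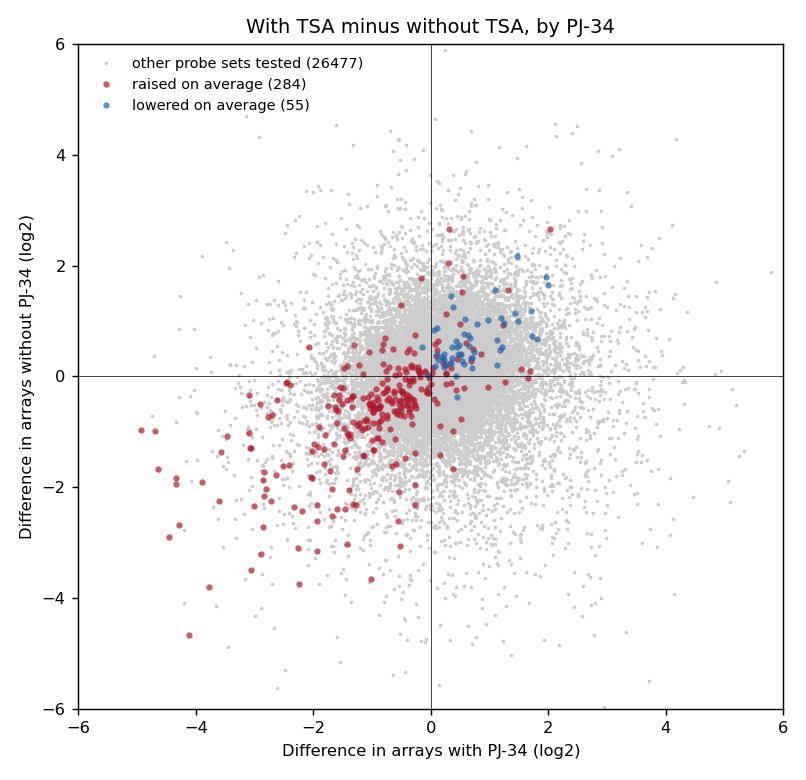
Difference of the 5-aza-dC effect (with TSA minus without TSA, log2) from the 4 arrays without PJ-34 (vertical axis) against that from the 4 arrays with PJ-34 (horizontal axis) for 26816 probe sets. Of the raised probe sets 206 of 284 lie in the lower left and of the lowered ones 52 of 55 in the upper right, while all probe sets together correlated at 0.111.

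The same quantity in HCT116 was set against RKO, without the arrays of PJ-34 and of PJ-34/5-aza-dC in RKO, as the signals of these 2 go against the labels. Over 65 RKO probe sets brighter by 2 or more on the log2 scale with 5-aza-dC than in the control and with 5-aza-dC/TSA than with TSA, the median log2 signal over the RKO control was 0 with PJ-34/5-aza-dC and 3.54 with PJ-34. The line difference (HCT116 minus RKO) passed the test for 0 of 28923 probe sets (limma). The smallest adjusted p was 0.676, and 1169 (4.04%) were under 0.05 before adjustment. On the 4 arrays without PJ-34 the cancer-testis list had a median difference of -0.89 in HCT116 and 0.08 in RKO, and the integrated stress response list 0.51 in HCT116 and 0.34 in RKO, over the genes tested in HCT116. These genes were filtered on HCT116 signals only. A gene under the floor on all 4 RKO arrays gives a difference of 0 there, and such genes were not counted. With a median standard error of 0.671 the line difference had a typical 95% interval of 1.48 on either side, so the arrays do not show whether the lines differ.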

How the data were processed

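RNA of 8 HCT116 arrays was analysed, with 6 RKO arrays for the line difference. The sample records name GCOS (no version stated in the paper or labels) as the software. The deposited values are linear signal intensities, used here as deposited. Trimmed means were 1000.14 to 1000.16, so the arrays had been scaled to a common target, which the paper's methods do not describe. Detection calls were not used here. Groups came from the labels.

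Signals were floored at 50 and log2 was taken. limma 3.58.1 in R 4.3.3 fitted PJ-34, 5-aza-dC, TSA and 5-aza-dC by TSA (3 residual degrees of freedom, variance trend on mean signal), with Benjamini-Hochberg adjustment over all probe sets at 0.05. The script was tested on simulated data. Of 54675 probe sets 41097 have a single symbol in the platform annotation, 1801 have several and 11777 have none. 1 probe set, the brightest on average, stood for a gene.

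Named genes are those past the test of the difference or, failing that, the 10 with the smallest p per direction, the same sign in both PJ-34 strata, up to 3 per list, the 10 largest average effects and the study's own genes. Members and the 23 lists were chosen with earlier results of these data known. Alternatives were the floor, filter, normalization, variance trend, model terms, arrays and probe set of a gene. The TSA contrasts and the counts within the average-called sets were added after seeing the data. Promoters came from RefSeq (GRCh38.p14). The number of arrays limits the precision.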

Additional observations from a re-analysis of the deposited data

How the results depend on the processing

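The difference called 0 probe sets in every setting but 2. With all 3 pairwise interactions as terms, which leaves 1 residual degree of freedom, it called 375 (208 above 0, 167 below), and the effects with TSA, without TSA and on average called 275, 3016 and 2391. Leaving out 1 array, the difference called 0 to 1 (PABPC1L, 3.09, adjusted p = 0.0114, without the 5-aza-dC array, against 1.71 with all 8), the effect with TSA 14 to 49, without TSA 53 to 803 and on average 122 (without PJ-34/5-aza-dC) to 814 (without TSA), of which 117 and 450 were raised. With no filter, which tests all 54675 probe sets, the effects with TSA, without TSA and on average each called 0 (limma), with 2816, 5501 and 5200 at an unadjusted p under 0.05. With no variance trend they called 0 (1394 unadjusted), 100 and 127, the last split into 121 raised and 6 lowered, against 284 and 55. With all 16 arrays in 1 fit the effect with TSA called 16, against 50. The cause was not tested. The line difference called 0 in all alternatives run. For the 88 named genes 759 of 791 values in other settings kept their direction and their side of the threshold, 32 passed it with the pairwise terms and 0 turned sign. When single arrays were left out, the sign turned in SPARC (-0.34 to 0.22), CDH1 (-0.40 to 0.11), GJA1 (-0.05 to 1.49), DNMT1 (-0.15 to 0.06), RANBP9 (-0.06 to 0.39), PARP1 (-0.54 to 0.07) and CDKN2A (-0.41 to 0.07). Over 18 alternatives the median difference was -1.78 to -1.08 for cancer-testis antigens, -1.37 to -0.67 for germline genes and -0.74 to -0.45 for histone genes. The germline list holds DAZL, MAEL and SYCP3, for which the main filter fixed the sign. No paired analysis was possible because every array carries replicate number 1 and each condition has 1 array. Low signals limit precision, as values under the floor have no order.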
